A study of Mus musculus with 4 samples.

Results

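Integrins are the transmembrane receptors through which cells hold on to extracellular matrix, and 9 genes for integrin subunits were followed here across mouse embryonic stem (ES) cells and extraembryonic endoderm (XEN) cells. They were Itga2, Itga3, Itga5, Itga6 and Itgav for alpha subunits and Itgb1, Itgb3, Itgb5 and Itgb7 for beta subunits. All probe sets of the array that were annotated to exactly 1 of these symbols were taken, which gave 15 probe sets for the 9 genes, among 8251 genes with such a probe set in all. Itgav had 3 probe sets, Itga3, Itgb1, Itgb5 and Itgb7 had 2 each, and the other 4 genes had 1. A probe set is a group of short probes on the array whose signals are combined into 1 value for a transcript.

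An integrin is a pair of 1 alpha and 1 beta subunit, and the pair decides which matrix protein is bound. The alpha3 and alpha6 subunits with beta1 bind laminins, the cross-shaped proteins of basement membranes. The alpha5 subunit with beta1 and alphav with beta1, beta3 or beta5 bind fibronectin, vitronectin and other proteins that carry the tripeptide RGD, whereas alpha2 with beta1 binds collagen and laminin. Beta7 pairs with alpha4 or alphaE and is known from lymphocyte homing. In the early embryo parietal endoderm, the lineage that XEN cells resemble, lays down the laminin-rich Reichert's membrane and migrates on matrix, and beta1 integrins are needed for the basement membrane under the embryonic endoderm to form.

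RNA from 4 cultures was measured, with 1 Affymetrix MG_U74Av2 array for each. The ES group was 1 undifferentiated culture of R1 cells on gelatin with LIF. The XEN group held 3 cultures of 2 lines. IM8A1-I and IM8A1-II were cultures of the IM8A1 line (PO strain, passage 27). The first was kept on gelatin in 70% EMFI-CM. The second spent 4 days in RPMI 1640 with 20% FBS, on tissue culture plastic. The third, XEN1-3 (ICR strain, passage 18), was kept like IM8A1-I. Because 2 of the 3 XEN cultures were of 1 line, the p-values speak only of how far these cultures spread, and the fit takes the lone ES culture to be as variable as they are.

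The labels were read beside markers of both cell types. All 8 listed ES markers, among them Pou5f1, Sox2 and Nanog, were lower in XEN, and all 10 listed XEN markers, among them Gata4, Gata6 and Sox17, were higher. Of these calls only that of Sox7 was lost with 1 XEN culture left out (adjusted p = 0.0784 without IM8A1-I, by limma). Between 59.6% and 60.5% of probe sets reached the background limit of 27.3 array units on each array. This limit is the 40th percentile of all values and is not a detection call. Of the 8 ES markers, 1 (Fgf4) reached it on each XEN array, and of the 10 XEN markers, 5 reached it in ES. The other markers were tested only because of the group where they were high, so that the filter set their direction. Among all tested genes 5.23% were called lower in XEN and 5.73% higher. The ES array was of another chip lot than the 3 XEN arrays, and lot and cell type therefore cannot be told apart. In the run record of XEN1-3 the fluidics station reported that it detected no fluid.

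The main comparison asked which integrin subunits differ between XEN and ES cells. Transcripts of the fibronectin and RGD receptor chains Itga5 and Itgav were higher in all 3 XEN cultures, by 1.77 ± 0.28 (Itga5) and 1.44 ± 0.28 (Itgav, brightest probe set) in log2 (SE, 3 XEN cultures against 1 ES culture), and both passed the test. The laminin receptor chains Itga3 and Itga6 did not pass, with differences of 0.32 ± 0.38 (Itga3, brightest probe set) and 0.08 ± 0.40 (Itga6). The dimmer Itga3 probe set differed by 0.85 ± 0.36, with ES below all 3 XEN cultures, and did not pass either. Of the beta chains, Itgb1, the common partner of most of these alpha chains, was higher on both probe sets but passed on 1 of them, and Itgb7 was lower without passing. Log2 differences were taken after adding 10.5 units to each value and understate the change of dim transcripts. The test was limma's moderated test over 8582 probe sets with Benjamini-Hochberg adjustment and a threshold of 0.05.

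Of the 15 integrin probe sets, 12 reached the limit on at least 1 array and were tested. Of these 12, 3 were higher in XEN, 0 were lower and 9 did not pass. Across all tested probe sets 5.58% were called higher and 5.05% lower. By limma's unadjusted p under 0.05, 6 of the 12 were higher and 1 was lower, where 15.1% and 14.5% of all tested probe sets were. Of the 12, 2 (the Itga5 probe set and 98366_at of Itgav) were tested only because of their XEN values, so that their direction was set by the filter. Of the other 10, which reached the limit on all 4 arrays, 2 were called higher and 0 lower. ES lay below all 3 XEN cultures for 6 of these 10, above them for 1 and inside their range for 3, while over all tested probe sets ES lay below for 39.0% and above for 34.0%. The median log2 difference was 0.66 over the 10 and 0.05 over all tested probe sets. Counted by gene, with the brightest probe set for each, 2 of 7 tested genes were higher and 0 were lower, against 5.73% and 5.23% of all tested genes.

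**Figure D1:**
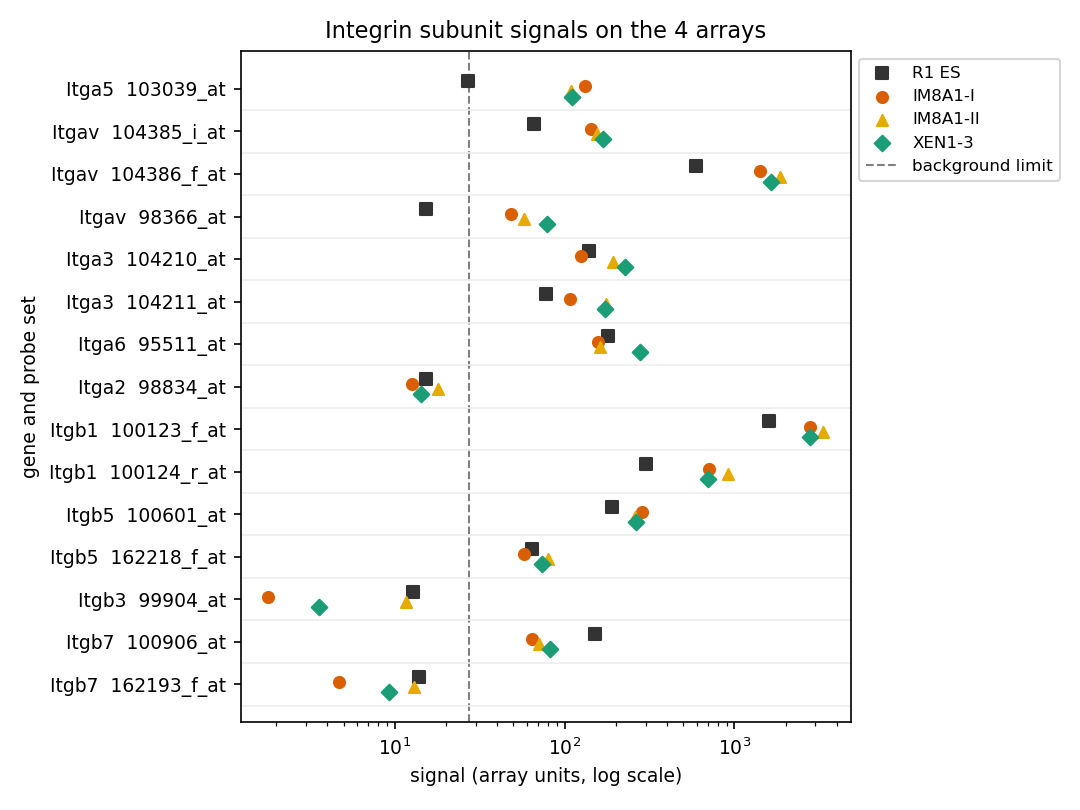
Signal of the 15 integrin probe sets in array units (log axis) on the 4 arrays, 1 point per array, with the background limit of 27.3 units as a dashed line. The ES squares lie left of all XEN points for Itga5, Itgav, Itgb1, 104211_at of Itga3 and 100601_at of Itgb5. They lie within or beside the XEN points for Itga6, and right of them for 100906_at of Itgb7. Itga2, Itgb3 and 162193_f_at of Itgb7 lie under the limit on all 4 arrays.

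Itga5 encodes the alpha chain of the classical fibronectin receptor. Its single probe set, 103039_at, read 26.9 units in ES. In XEN it read 132 (IM8A1-I), 109 (IM8A1-II) and 111 (XEN1-3), the order of cultures used for all values that follow. The groups did not overlap, the 3 XEN values lay close together, and ES lay just under the background limit. Set against the limit, XEN was at least 4.28-fold higher (geometric mean of the 3 cultures over 27.3 units). The log2 difference of 1.77 had a 95% interval from 1.07 to 2.46 and an adjusted p of 0.0206 by limma. The adjusted p was 0.0625 without IM8A1-I, 0.0523 without IM8A1-II and 0.0111 without XEN1-3, with differences of 1.69, 1.81 and 1.80.

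Itgav encodes the alphav chain, which pairs with several beta chains to bind vitronectin, fibronectin and other RGD proteins. Its brightest probe set, 104386_f_at, read 595 units in ES against 1417, 1857 and 1645 in XEN. All 3 XEN values were more than 2-fold above ES, and their mean of 1639 ± 220.2 (SD, n = 3) was 2.75-fold the ES value. The 95% interval of the log2 difference ran from 0.75 to 2.12 (limma adjusted p = 0.0322).

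The other Itgav probe sets gave like differences without passing. Probe set 104385_i_at read 66.3 units in ES and 143, 156 and 168 in XEN, a log2 difference of 1.11 ± 0.27 (SE, limma adjusted p = 0.0568). Probe set 98366_at read 15.2 in ES, under the limit, and 48.4, 57.3 and 79.1 in XEN, at least 2.21-fold higher, with a difference of 1.47 ± 0.36 (adjusted p = 0.0578). ES lay below every XEN culture on 104386_f_at and 104385_i_at, and on 98366_at too, where the filter had set the direction. The suffix of 104386_f_at marks, in the naming of this array, probes that can be shared with related sequences. Its adjusted p was 0.0735 without IM8A1-I, 0.0714 without IM8A1-II, 0.0262 without XEN1-3 and 0.0602 when values under the background limit were set to it before log2.

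Itgb1 encodes beta1, the partner of alpha2, alpha3, alpha5, alpha6 and alphav. Probe set 100123_f_at read 1609 units in ES against 2777, 3328 and 2786 in XEN. Probe set 100124_r_at read 299.6 in ES and 706, 922 and 696 in XEN. On both, ES was lowest and IM8A1-II highest, and IM8A1-I and XEN1-3 were nearly equal. The brighter one differed by 0.87 ± 0.26 in log2 and did not pass (limma adjusted p = 0.0851), whereas the dimmer one differed by 1.33 ± 0.29 and passed (adjusted p = 0.0454). This call was close to the threshold: the adjusted p was 0.106 without IM8A1-I, 0.100 without IM8A1-II and 0.0733 with each XEN line counted once, and it also missed the threshold with median scaling (0.0511), values raised to the limit (0.0781), no filter (0.0594) and no variance trend (0.0556).

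The remaining beta chains did not pass. Itgb5, which pairs with alphav in a vitronectin receptor, read 191 units in ES and 284, 259.5 and 262 in XEN on its brighter probe set, 100601_at. The XEN values lay above ES without overlap, and the log2 difference of 0.47 had a 95% interval from -0.18 to 1.11 (limma adjusted p = 0.290). On the dimmer one, 162218_f_at, ES at 64.6 lay inside the XEN range of 57.7 to 80.0.

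Itgb7 stood apart from the other tested members in direction. Probe set 100906_at read 151 units in ES and 64.1, 70.9 and 82.3 in XEN. ES was 2.08-fold the XEN mean of 72.4 ± 9.20 (SD, n = 3), with no overlap. The log2 difference was -0.96 ± 0.29 with a 95% interval from -1.67 to -0.26, and the adjusted p of 0.0878 did not pass. It stayed between 0.0513 and 0.194 in all 14 alternative settings in which it was tested. Its second probe set, 162193_f_at, lay under the limit on all 4 arrays, at 13.9 in ES and 4.70, 12.9 and 9.20 in XEN.

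Itga2, the collagen receptor chain, read 15.3 units in ES and 12.6, 17.9 and 14.2 in the XEN cultures. Itgb3, the beta chain of a vitronectin and fibrinogen receptor known from platelets and osteoclasts, read 12.8 in ES and 1.80, 11.6 and 3.60. Both genes lay under the background limit on all 4 arrays and were not tested, so no change can be read from them.

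The laminin-binding alpha chains gave smaller differences with wide intervals. Itga3 read 139.9 units in ES and 125, 194 and 228 in XEN on probe set 104210_at, so that ES lay between the XEN cultures. The 95% interval of its log2 difference ran from -0.63 to 1.27 (limma adjusted p = 0.620). On 104211_at it read 77.8 in ES and 108, 176 and 172 in XEN, without overlap, a difference of 0.85 ± 0.36 with an interval from -0.04 to 1.74 (adjusted p = 0.186). Both Itga3 probe sets were lowest among XEN cultures in IM8A1-I.

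Itga6 read 181 units in ES and 158, 161 and 279 in XEN. The 2 cultures of the IM8A1 line lay slightly below ES and XEN1-3 above. The log2 difference of 0.08 had a 95% interval from -0.89 to 1.06 (limma adjusted p = 0.913), and it was -0.17 without XEN1-3. The intervals of Itga6 and of the brighter Itga3 probe set end below the 1.44 measured for Itgav, and that of the dimmer Itga3 probe set reaches above it, but the interval of Itgav itself overlaps all 3. Whether the fibronectin-binding chains differed from XEN to ES by more than the laminin-binding chains was not tested.

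**Figure D2:**
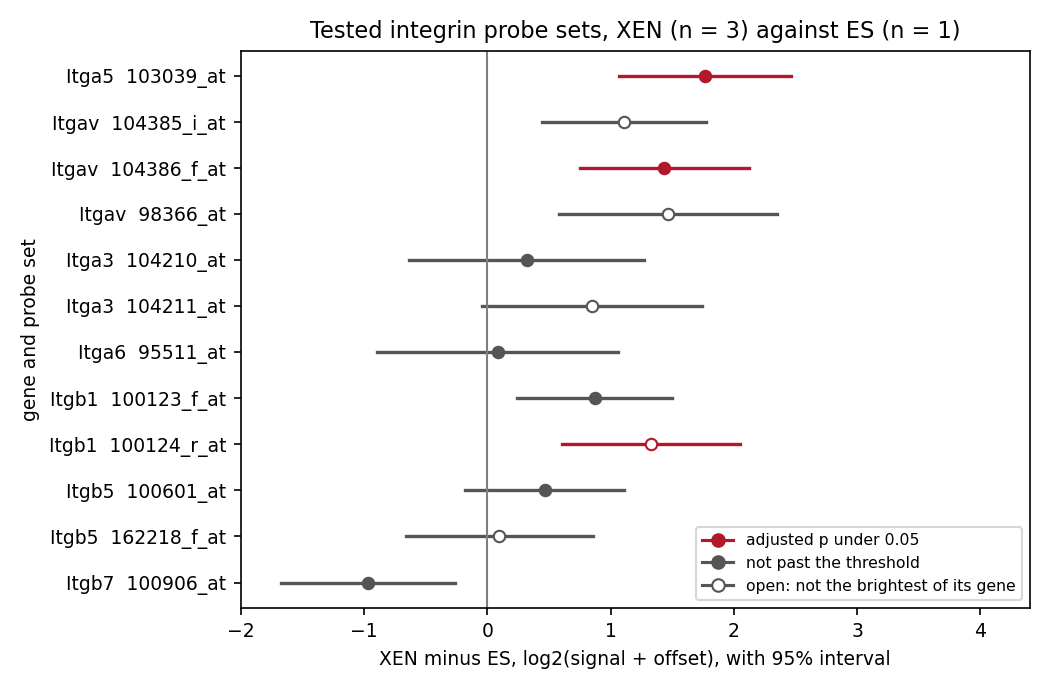
Difference of the 3 XEN arrays from the ES array in log2(signal + 10.5 units) for the 12 tested integrin probe sets, with 95% intervals from limma. Red marks an adjusted p under 0.05, and open circles mark probe sets that were not the brightest of their gene. The 3 red intervals (Itga5, 104386_f_at of Itgav and 100124_r_at of Itgb1) lie above 0, and those of Itga3, Itga6 and Itgb5 cross it.

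Start regions are shown for the 3 genes with at least 1 probe set called higher (Itgb1 on its dimmer one only) and for Itgb7, whose difference was in the other direction without passing. The sequences cover 250 bases before to 50 after the annotated start, are those of RefSeq on GRCm38.p6 and read 5′ to 3′ on the gene's strand. Capitals mark words found in them, each searched on both strands. GGGCGG was the GC box and TGACTCA the word of AP-1. The GATA-factor words were AGATAA as the first form, AGATAG as the second, TGATAA as the third and TGATAG as the fourth. The Sox-type words were ACAAAG as the first form and ACAATG as the second. The box CCAAT and the word of the TATA box, TATAAA, were searched too.
Itga5 (chr15:103366742-103367041, minus strand): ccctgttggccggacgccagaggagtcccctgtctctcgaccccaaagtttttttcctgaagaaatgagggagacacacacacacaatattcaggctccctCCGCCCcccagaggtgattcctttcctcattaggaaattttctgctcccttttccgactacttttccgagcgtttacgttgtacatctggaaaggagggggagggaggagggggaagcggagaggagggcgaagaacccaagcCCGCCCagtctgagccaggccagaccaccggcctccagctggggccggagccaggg
Itgav (chr2:83724147-83724446, plus strand): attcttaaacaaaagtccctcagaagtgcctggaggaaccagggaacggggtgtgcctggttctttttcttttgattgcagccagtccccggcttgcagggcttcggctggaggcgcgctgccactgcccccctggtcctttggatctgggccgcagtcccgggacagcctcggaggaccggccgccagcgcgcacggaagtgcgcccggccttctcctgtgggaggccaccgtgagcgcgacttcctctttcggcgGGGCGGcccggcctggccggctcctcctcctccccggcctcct
Itgb1 (chr8:128685404-128685703, plus strand): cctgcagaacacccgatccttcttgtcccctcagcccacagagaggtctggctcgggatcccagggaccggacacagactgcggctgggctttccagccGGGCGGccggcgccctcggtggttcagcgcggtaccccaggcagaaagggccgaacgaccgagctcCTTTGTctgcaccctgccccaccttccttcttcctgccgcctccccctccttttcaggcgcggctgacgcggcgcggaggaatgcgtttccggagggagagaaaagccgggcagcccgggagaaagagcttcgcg
Itgb7 (chr15:102231886-102232185, minus strand): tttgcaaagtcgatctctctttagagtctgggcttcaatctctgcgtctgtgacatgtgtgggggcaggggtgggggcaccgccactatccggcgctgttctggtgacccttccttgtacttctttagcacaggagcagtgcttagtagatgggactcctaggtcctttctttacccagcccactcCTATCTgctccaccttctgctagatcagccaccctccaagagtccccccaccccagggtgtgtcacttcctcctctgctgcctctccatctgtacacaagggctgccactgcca

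The start regions of Itga5, Itgav and Itgb1 held 13, 24 and 27 CpG dinucleotides, and that of Itgb7 held 5. Among members without a call, the region of Itgb5 held 20, the 2 of Itga3 held 5 and 24, and that of Itga2 held 13. GC boxes stood in the regions of Itga5, Itgav and Itgb1: Itga5 had 2, at 149 and 6 bases before the start, Itgav 1 at 8 bases after it, and Itgb1 1 at 151 bases before it. Itgb1 also had 1 Sox-type word at 85 bases before the start. The Itgb7 region had no GC box and 1 GATA-factor word, at 64 bases before the start. No words of different kinds overlapped. In the whole table of 32851 start regions of 300 bases, 35.7% held a GC box, 29.8% a GATA-factor word, 28.6% a Sox-type word, 37.4% CCAAT, 13.6% TATAAA and 5.20% the AP-1 word. Of the 8 start regions listed for 7 members (Itga3 has 2), 7 lay above the median GC content of the whole table, 52.7%. Of the 8, 7 held a GC box, 2 a Sox-type word, 1 a GATA-factor word, 1 CCAAT and 0 TATAAA or the AP-1 word. These words are descriptions of the sequence and do not show binding.

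Within XEN, absolute differences of the integrin transcripts from IM8A1-I were of about the size seen over all probe sets. None of the 12 tested probe sets differed 2-fold between IM8A1-II and IM8A1-I, the same line in other conditions, where 5.98% of all tested probe sets did. None did so between XEN1-3 and IM8A1-I, 2 lines in the same medium, against 9.11% of all, and over 12 probe sets a count of 0 is near both of these shares. The median absolute log2 difference over the 12 was 0.26 (all tested probe sets 0.27) between the IM8A1 cultures and 0.27 (all 0.32) between XEN1-3 and IM8A1-I. With sign kept, the medians over the 12 were 0.23 (all 0.01) in IM8A1-II and 0.26 (all 0.04) in XEN1-3, each minus IM8A1-I. Between XEN1-3 and IM8A1-II the median absolute difference over the 12 was 0.18, below the 0.33 over all tested probe sets. With 1 array for each culture these differences have no test.

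The widest differences from IM8A1-I were 0.66 in IM8A1-II and 0.81 in XEN1-3, both of Itga3. Itga3 was higher in IM8A1-II than in IM8A1-I by 0.59 and 0.66 in log2 on its 2 probe sets, and higher in XEN1-3 than in IM8A1-I by 0.81 and 0.63. Itga6 differed by 0.03 between the IM8A1 cultures and was 0.78 higher in XEN1-3 than in IM8A1-I. Itga5 was lower by 0.26 in IM8A1-II and by 0.23 in XEN1-3 than in IM8A1-I. The brightest Itgav probe set was higher than in IM8A1-I by 0.39 in IM8A1-II and by 0.21 in XEN1-3, and 98366_at by 0.20 and 0.61.

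**Figure D3:**
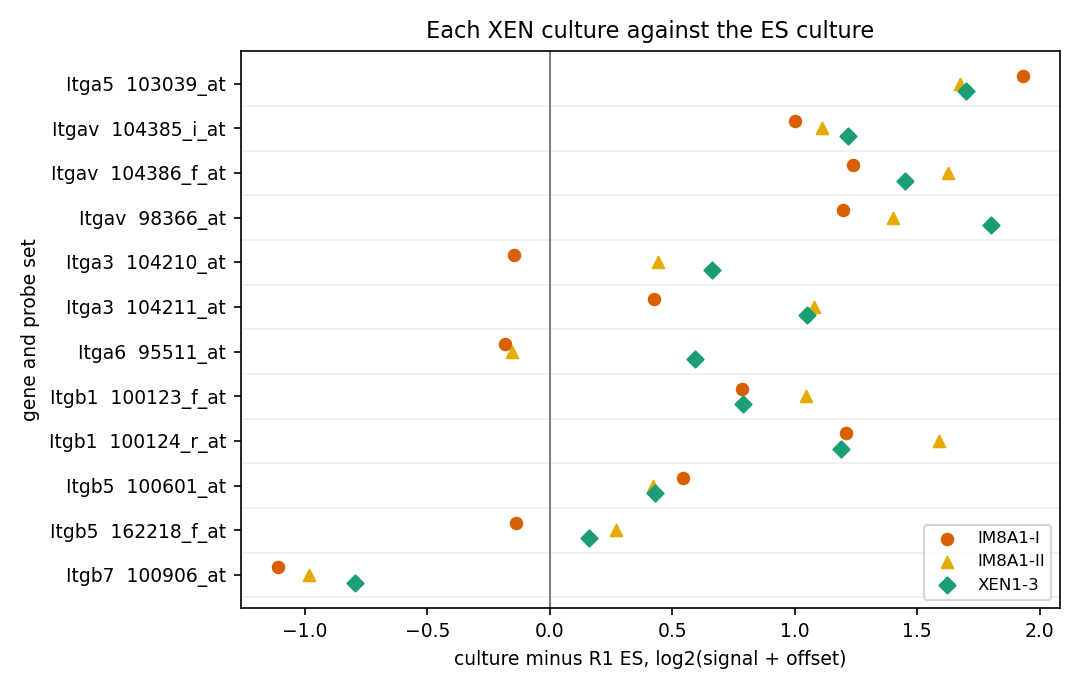
Each XEN culture minus the ES culture in log2(signal + 10.5 units) for the 12 tested integrin probe sets, 1 point per culture. Points of Itga5, Itgav, Itgb1, 104211_at of Itga3 and 100601_at of Itgb5 lie right of 0 for all 3 cultures. Those of 100906_at of Itgb7 lie left of 0, and those of Itga6 on both sides, at -0.18, -0.16 and 0.59.

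Genes of the laminin side of adhesion were set beside the receptor chains. Of 12 tested genes for laminin chains, nidogens and other laminin receptors, 5 were higher, 0 were lower and 7 did not pass (median log2 difference 1.32, all tested genes 0.03). Among all tested genes 5.73% were called higher and 5.23% lower, and over 12 genes a count of 0 lower is near that share. The laminin chains Lama1, Lamb1 and Lamc1, which together make laminin-111, were higher by 5.54 ± 0.33, 4.33 ± 0.66 and 1.92 ± 0.31, and Lamb2 by 1.43 ± 0.31. The nidogen Nid2, which links laminin to collagen IV, was higher by 1.21 ± 0.27. Of the 5 calls, 2 (Lama1 and Lamb1) remained when either IM8A1 culture was left out, and 5 remained without XEN1-3. Nid1 was called besides them without IM8A1-II, and Nid1 and Lama4 without XEN1-3. Lama4 lay under the limit in ES, so that the filter set its direction. The adjusted p of Lamc1 was 0.0588 and 0.0523 without the first and the second IM8A1 culture, and neither Lamb2 nor Nid2 passed without either of them. Lama5, the alpha chain of another laminin, read 377 units in ES and 131, 211 and 197 in XEN without passing (limma adjusted p = 0.112). Dag1, the non-integrin laminin receptor dystroglycan, read 449.9 in ES and 102, 407 and 479 in XEN, so that only IM8A1-I was far from ES.

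Among 16 tested genes for fibronectin, other RGD proteins, collagens and further integrin ligands, 5 were higher, 0 were lower and 11 did not pass (median 0.20). Of all tested genes 5.73% were called higher and 5.23% lower, and over 16 genes a count of 0 lower is near that share. By limma's unadjusted p under 0.05, 4 of the 16 were lower, with 15.1% of all tested genes. The 0 rests on the brightest probe set of each gene: dimmer probe sets of 3 of these genes were called lower, 94309_g_at and 94307_at of Fbln1 (-2.31 and -2.67), 94305_at of Col1a1 (-3.28) and 101080_at of Col5a1 (-2.12), whose brightest probe sets differed by -0.93, -0.89 and -0.07. Of these dimmer probe sets, 94307_at, 94305_at and 101080_at were tested only because of their ES values, so that the filter set their direction. Fn1, fibronectin itself, read 736 units in ES and 336, 334 and 235 in XEN. It was the transcript of the ligand shared by the Itga5 and Itgav receptors, and it lay lower in every XEN culture, by 1.28 ± 0.32 in log2, a difference that did not pass (limma adjusted p = 0.0605). Vtn, vitronectin, lay under the limit on all 4 arrays. Mfge8, a secreted RGD protein bound by alphav integrins, was higher, from 791 to 3423, 2934 and 3429 units (adjusted p = 0.0109). The collagen IV chains Col4a1 and Col4a2 were higher by 5.13 ± 0.32 and 4.66 ± 0.35, Ccn2, a matrix-associated growth factor binding protein, by 4.08 ± 0.53, and Vcam1, a ligand of alpha4 integrins, was at least 9.06-fold higher on its brightest probe set, 92558_at. The other Vcam1 probe sets, 92559_at and 92560_g_at, differed by 1.53 and 1.28 without passing (limma adjusted p of 0.196 and 0.186). All Vcam1 probe sets lay under the limit in ES and were tested only because of their XEN values, so that the filter set their direction. Neither Ccn2 nor Vcam1 passed when values under the limit were set to it, and Vcam1 also missed with an offset of the 50th percentile (adjusted p = 0.0567).

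**Figure D4:**
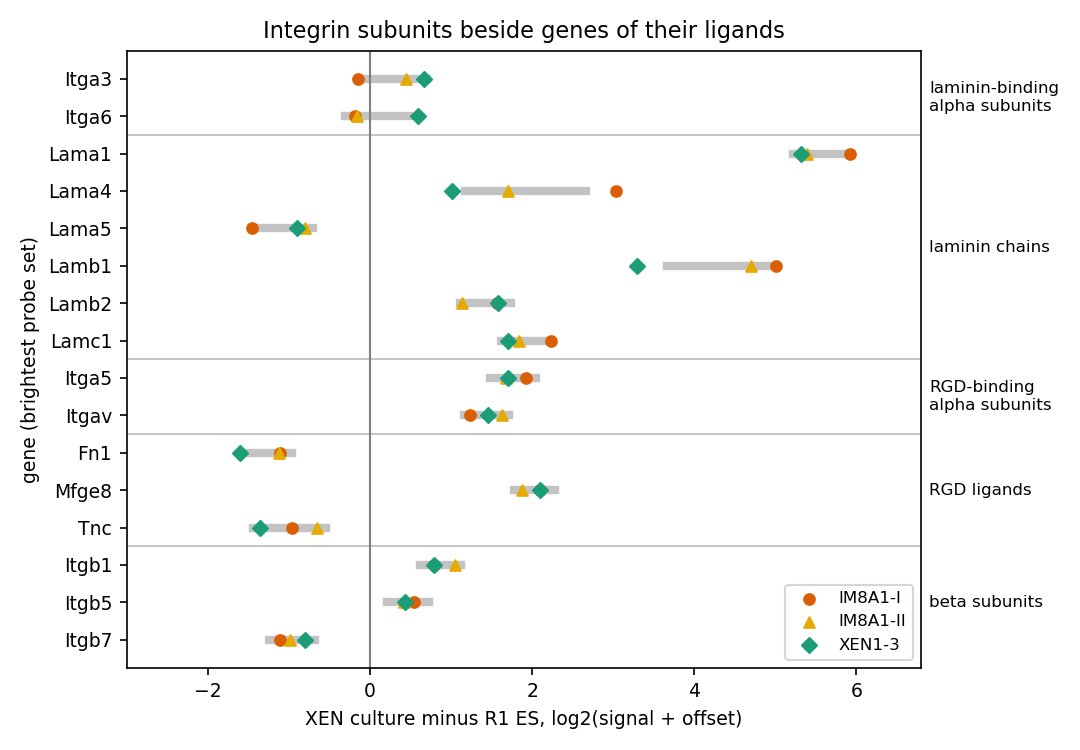
Each XEN culture minus the ES culture in log2(signal + 10.5 units), for the brightest probe set of each gene. Drawn are the tested genes among the 9 integrin subunits followed here, the tested laminin chains and the RGD proteins Fn1, Mfge8 and Tnc. The 5 other tested integrin genes, among them the laminin-binding Itga7, are not drawn. Points are cultures and grey bars the mean difference ± SE from limma. Lama1 lies between 5.31 and 5.92, and the laminin-binding Itga3 and Itga6 have points on both sides of 0. Itga5 and Itgav lie right of 0 and Fn1 left of it. The dimmer Itga3 probe set, 104211_at, is not drawn and differed by 0.85.

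Integrins signal and hold to actin through proteins bound to their short cytoplasmic tails. Of 27 tested adaptor and focal adhesion genes 3 were higher, 0 were lower and 24 did not pass (median 0.11). Of all tested genes 5.73% were called higher and 5.23% lower, and over 27 genes a count of 0 lower is near that share. The 3 were Tgfb1i1 (Hic-5, a paxillin relative), higher by 2.16 ± 0.36, the kinase Src by 1.63 ± 0.30, and Itgb1bp1 (ICAP-1, which binds the beta1 tail) by 1.79 ± 0.40. Of the other Itgb1bp1 probe sets, 100989_at was higher by 1.34 without passing and 100991_at differed by -0.23. By limma's unadjusted p under 0.05, 5 of the 27 were lower, a share near the 15.1% of all tested genes. Crkl, an adaptor, was called higher on a dimmer probe set only (103849_at, by 1.67). That probe set lay under the limit in ES, so that the filter set its direction. The kinase Ilk read 130.1 units in ES and 271, 352 and 368 in XEN and just missed the threshold (limma adjusted p = 0.0540). Talin 1 (Tln1) and vinculin (Vcl), which join integrins to actin, did not pass, at 811 against 1039, 1031 and 1064 units and at 705 against 304, 456 and 491. None of the 3 passed without IM8A1-I, 1 (Tgfb1i1) passed without IM8A1-II, and without XEN1-3 all 3 passed and Ilk as well.

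Among 14 tested tetraspanins and other membrane partners 4 were higher, 0 were lower and 10 did not pass (median 0.79). Of all tested genes 5.73% were called higher and 5.23% lower, and over 14 genes a count of 0 lower is near that share. The tetraspanin Cd9, a partner of beta1 integrins, read 912 units in ES and 2340.3, 2522 and 2355 in XEN, a difference of 1.39 ± 0.24. Cd63 was higher by 1.63 ± 0.26, and Plaur, the urokinase receptor that associates with integrins, by 2.22 ± 0.26. Tspan8 was at least 1.65-fold higher, but it was tested only because of its XEN values, so that the filter set its direction. Cd151, the tetraspanin bound most tightly to the laminin receptors alpha3beta1 and alpha6beta1, read 299.8 in ES and 521, 658 and 636 in XEN without passing (limma adjusted p = 0.0807). The 4 calls fell to 1 (Plaur) without IM8A1-I and 2 (Plaur and Cd63) without IM8A1-II and stayed 4 without XEN1-3.

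Of 10 other integrin subunit genes on the array, 5 reached the limit and were tested, and limma called 0 of them, also at an unadjusted p under 0.05, which 14.8% (higher) and 15.1% (lower) of all tested genes reached. Itga7, a further laminin-binding chain, read 60.9 units in ES and 97.0, 97.6 and 93.0 in XEN (adjusted p = 0.214). Itgb4, the partner of alpha6 in hemidesmosomes, read 58.5 in ES and 34.5, 55.5 and 22.8 in XEN (adjusted p = 0.434). Itga4, a partner of beta7, lay under the limit on all 4 arrays, and Itgae, the other partner, read 17.1 in ES and 27.9, 25.3 and 16.6 in XEN.

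Bulk RNA cannot tell fewer cells of a type from less RNA per cell, and markers of other cell types were therefore read beside these results. For blood, platelets and lymphocytes, where Itgb7, Itga2 and Itgb3 are best known, 12 of 16 listed markers were on the array. Their summed signal was 254 units in ES and 284 to 425 in XEN, and Ptprc, Cd3e, Cd8a, Itgam and Pf4 lay under the limit on all arrays. Of the 7 tested, Cd4 was higher. For fibroblasts or feeder cells, where Itga5 and Itgav are also made, the sum of 12 markers was 1211 in ES and 588 to 817 in XEN, with Col3a1, Dcn, Postn and Prrx1 under the limit everywhere, and Thy1 was lower, as was the dimmer probe set of Col1a1. In that sum Tagln alone gave 538 units in ES, and Col1a2 read 206 in ES and 352, 353 and 403 in XEN. The sum of 9 trophoblast markers was 991 in ES and 110.2 to 142 in XEN (Tfap2c was lower and Cdx2, Elf5, Esx1 and Tpbpa were under the limit everywhere). Tfap2c alone gave 767 of the 991 units. The sum of 8 endothelial markers was 347 in ES and 430.0 to 727 in XEN (Tek and Flt1 were higher and Eng was lower). Leaving out IM8A1-I ended the calls of Cd4, Thy1, Flt1 and Eng (limma adjusted p of 0.0834, 0.112, 0.0709 and 0.0674), and leaving out IM8A1-II those of Cd4, Thy1 and Eng (0.0616, 0.105 and 0.0898). Cd4, Tek and Flt1 were tested only because of their XEN values. Thy1, Tfap2c and the dimmer Col1a1 probe set were tested only because of their ES values. For all of these the filter set the direction. The part of cells of these other types in the integrin differences was not tested.

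Profiles most like those of the 3 members with the widest range were found among the other 6350 tested genes, by the Euclidean distance between log2 profiles over the 4 arrays, each centred on its own mean. For Itga5 they were Fez2, Atn1 and Wsb1, at distances of 0.09 to 0.12 where the median gene lay at 1.62. For Itgav they were Abcb10, Fam3c and Cryab, at 0.03 to 0.09 (median gene 1.38). For Itgb7 they were Sugt1, Ilf2 and Bub1, at 0.04 to 0.07 (median gene 1.09). With 4 arrays, many genes share any such profile.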

How the data were processed

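Affymetrix MG_U74Av2 arrays of 1 ES and 3 XEN cultures were analysed from the deposited table, which gives 1 intensity on a linear scale for each of 12488 probe sets and array. Not given in the sources used here is the method of probe summary. The deposited intensity values had equal 2% trimmed means (150.1 units on each array), so the arrays were already at a common level. Values were rescaled to that mean, 66 control probe sets were set aside, 10.5 units (the 25th percentile) were added and log2 was taken. A probe set was tested if 1 array reached 27.3 units, the 40th percentile, which kept 8582. Symbols came from the platform annotation. The brightest tested probe set represents a gene. A fold against a group with all arrays under the limit is the geometric mean of the other group over 27.3 units.

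Groups came from the labels. The comparison of XEN with ES used limma 3.58.1 (R 4.3.3), with eBayes, trend in the variance, 3.76 prior and 2 residual degrees of freedom, as a two-sided test adjusted by Benjamini and Hochberg's method across 8582 probe sets. Comparisons within XEN had no test. Precision is limited by the number of arrays. In a test on simulated data for this comparison (8582 probe sets, 50 changed at each size), 0 of 50 changes of 1 in log2, 13 of 50 of 2 and 48 of 50 of 4 were called, with 2 false calls. Simulated arrays of both groups took their levels and spread from the XEN cultures, without an effect of chip lot or line. The count of false calls therefore does not carry over to the measured arrays. Fewer probe sets were changed in the simulation than were called in the measured arrays (479 higher and 433 lower), which made its adjustment stricter. The shares of changes called therefore do not carry over either. Alternatives were other scalings, offsets, limits and filters, no variance trend, each XEN line counted once, each XEN array left out in turn (limit and offset kept) and the mean of a gene's probe sets.

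The named genes were every member and probe set, up to 4 genes with the smallest p and the called genes of each list (at most 8 named), marker genes, and 3 profile neighbours of the 3 members with the widest range. Itga7, Itgb4, Itga4, Itgae, Lama5, Dag1, Vtn, Tln1, Vcl and Cd151 were singled out for their roles after values were seen, and Nid1, Lama4, Fbln1, Col1a1, Col5a1, Crkl and the dimmer Vcam1 probe sets for their calls. The members and lists were chosen with earlier results of these data known. Protein sequences were not analysed here.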

Additional observations from a re-analysis of the deposited data

Results flagged for a closer look

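Itga6, the laminin-binding alpha6 chain, differed from ES in opposite directions in the 2 XEN lines. On log2 its difference from ES was -0.18 in IM8A1-I and -0.16 in IM8A1-II, and 0.59 in XEN1-3, on a probe set that reached the background limit on all 4 arrays. Both cultures of 1 line lay below ES and the single culture of the other line above it. The difference between the lines was not tested. All 3 values share the same ES array, and the run record of XEN1-3 carries the fluidics message. The differences of both IM8A1 cultures from ES were smaller than the SE of 0.40 from limma. ES also lay inside the XEN range on 104210_at of Itga3 and 162218_f_at of Itgb5. Over all tested probe sets ES lay below the 3 XEN cultures for 39.0%, above them for 34.0% and inside their range for the rest.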

How the results depend on the processing

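The 2 integrin genes called higher, Itga5 and Itgav, were 2 in 11 of the other settings, 1 with values raised to the limit and 0 to 2 with 1 XEN array left out. The count of integrin genes called lower was 0 in all settings. Itga6 reversed in sign, to -0.016 with median scaling and to -0.17 without XEN1-3, and ranged from -0.17 to 0.22 with 1 XEN array left out. The cause was not tested. None of the tested integrin probe sets was 2-fold apart between IM8A1-I and either other XEN culture with median scaling, the 2 other offsets or values raised to the limit. In the laminin list the 5 genes called higher became 3 without a filter and 1 with values raised to the limit (2 to 7 with 1 array left out). The 5 also became 3 with median scaling, an offset of the 50th percentile, no variance trend and each XEN line counted once. With quantile normalization and with a limit of the 30th percentile the 5 became 4. In the fibronectin and collagen list the 5 became 3 with values raised to the limit (5 to 6 with 1 array left out), and the 0 called lower became 1 without a filter and 2 with values raised to the limit (0 to 2 with 1 array left out). In the adaptor list the 3 called higher became 1 without a filter and 1 with values raised to the limit (0 to 4 with 1 array left out). They became 2, without Itgb1bp1, with median scaling, quantile normalization, an offset of the 50th percentile and no variance trend. The 0 called lower in that list became 1 without a filter and 2 with values raised to the limit (0 to 1 with 1 array left out). In the tetraspanin list the 4 called higher became 3 with an offset of the 50th percentile, without a filter and with values raised to the limit (1 to 4 with 1 array left out). The 0 called lower there became 1 with values raised to the limit. The causes of these changes were not tested. No paired analysis was possible because the labels give no replicate numbers shared by ES and XEN. Itga2, Itgb3 and 162193_f_at of Itgb7 were too dim to compare.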
